A study of Sus scrofa with 24 samples.

Results

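The proteasome subunit genes were followed across 4 tissues of the pig. They were taken from the gene names printed in the array files, as every probe whose name is PSMA, PSMB, PSMC, PSMD or PSME followed by a digit, without PSMB8 and PSMB9. This gave 102 of 60305 probes and 39 gene names. PSMC3IP, which matches by its letters alone and encodes a cofactor of meiotic recombination, was set aside, which left 38 subunit genes. Where a gene had more than 1 probe, the brightest on average stands for it, and 25 of the 38 had several probes, up to 12 for PSMB4. PSMA1 and PSMA7 were not found under these names and were not analysed here. For 37 of the 38 genes the chosen probe passed the filter on dim signals, and 36 were well above background on all 24 arrays. The chosen probe of PSMD5 did not pass, and that of PSMA3 was well above background on 3 Liver, 4 Spleen, 5 Jejunum and 6 Peyer arrays. The only probes of PSMA3 and PSMD3 read as their proteins on the opposite strand. Their signals may therefore not measure these transcripts, and both stay in the counts below.

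The samples came from 6 crossbred pigs aged 10 weeks, weaned on day 28 and fed a standard diet ad libitum, with no treatment that distinguishes the groups. Each animal, numbered 68, 69, 70, 71, 73 and 75, gave liver, spleen, jejunum free of Peyer's patches (Jejunum) and jejunum carrying a patch (Peyer), so n = 6 per tissue. A Peyer's patch is lymphoid tissue in the gut wall, and the Peyer arrays carried enterocyte genes beside B cell genes. RNA of each sample was hybridised to its own one-colour Agilent array, a glass slide with probes of 60 bases.

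The proteasome is the main protease of the cytosol and nucleus and degrades proteins tagged with ubiquitin. Its barrel-shaped core is built of alpha and beta rings, and 3 of the beta subunits, PSMB5, PSMB6 and PSMB7, carry the active sites. A regulatory cap, made of a base with ATPases (PSMC genes) and a lid (PSMD genes), binds ubiquitin chains, unfolds the substrate and feeds it into the core. In immune cells and under interferon gamma the active sites are replaced by inducible ones. PSMB10 takes the place of PSMB7, and the cap can be replaced by the PA28 activator, a ring of PSME1 and PSME2, which is known for its part in making peptides for MHC class I.

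The probes of PSMB10, the subunit that differed most, of the standard PSMB7 and of the PA28 pair are shown so that the measured stretch of each transcript can be seen. The inducible PSMB10 and the standard PSMB7 are related genes, and so are PSME1 and PSME2, so the longest run that each pair of probes has in common is set in capitals. It was 6 bases for PSMB10 and PSMB7 and 7 bases for PSME1 and PSME2, within probes of 60 bases. The last line is a second PSMB10 probe, whose longest run in common with the first is 5 bases.
PSMB10 (A_72_P644145): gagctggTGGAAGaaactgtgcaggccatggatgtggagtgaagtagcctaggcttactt
PSMB7 (A_72_P607493): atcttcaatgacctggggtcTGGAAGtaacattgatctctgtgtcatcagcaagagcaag
PSME1 (A_72_P035626): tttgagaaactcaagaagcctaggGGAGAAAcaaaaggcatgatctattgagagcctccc
PSME2 (O12146): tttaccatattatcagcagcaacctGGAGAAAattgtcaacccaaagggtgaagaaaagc
PSMB10 (A_72_P024281): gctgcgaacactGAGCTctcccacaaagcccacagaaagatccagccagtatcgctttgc

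A level is a probe's log2 signal minus the 75th percentile of all probes on the same array, which lets values compare 1 gene between samples and not one gene with another. That percentile lay between 423.8 and 525.7 signal units on Liver arrays and between 275.4 and 1098 on Spleen arrays. On Jejunum arrays it lay between 680.9 and 1001 and on Peyer arrays between 876.7 and 2262. Every Liver array thus had a lower percentile than any Jejunum or Peyer array. The share of probes well above background was 60.39% to 67.65% in Liver and 62.8% to 75.6% in Spleen. In Jejunum that share was 68.59% to 73.24% and in Peyer 70.54% to 75.45%. Mean levels of the hepatocyte list (8.36 to 8.70 on Liver arrays, at most -0.27 elsewhere) and the enterocyte list (5.78 to 7.54 on Jejunum and Peyer arrays, at most -0.73 elsewhere) followed the tissue labels. Some arrays stood apart. The B cell list was at -1.53 in Peyer of animal 71, against 2.16 to 2.68 on the other Peyer arrays and 0.79 to 1.61 on Spleen arrays, and the counts of calls for Peyer are also given without that array. In Spleen the hepatocyte list was at -0.27 in animal 68 (others -4.55 to -1.34) and the enterocyte list at -0.73 in animal 73 (others -5.42 to -4.17). Liver and Spleen shared 3 slides and Jejunum and Peyer the other 3, so Spleen against Liver and Peyer against Jejunum were measured within slides. The slide with Jejunum and Peyer of animals 73 and 75 was scanned on another day than the other slides. In the other 4 comparisons tissue and slide set cannot be told apart. In bulk tissue, fewer cells of a type and less RNA per cell cannot be told apart either.

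Most subunits differed little between the tissues. The distance between the highest and the lowest tissue mean had a median of 0.51 log2 over the 37 subunits (quartiles 0.32 and 0.71), against 1.29 over the 42650 probes tested and 1.12 over the 31584 probes that were well above background on every array. The widest distances were those of PSMB10 (2.32), PSME2 (1.40) and PSMC5 (1.18). An F-test over the 4 tissues (limma, Benjamini-Hochberg over all probes) called 27 of 37 subunits, where 90% of all probes were called. The mean was highest in Liver for 23 of the 37, in Peyer for 7, in Jejunum for 4 and in Spleen for 3, and it was lowest in Spleen for 18. The test for animal beside tissue called 0 of 37 (lowest adjusted p = 0.21 by limma, 1 subunit at an unadjusted p under 0.05), where 5.47% of all probes were called.

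**Figure D1:**
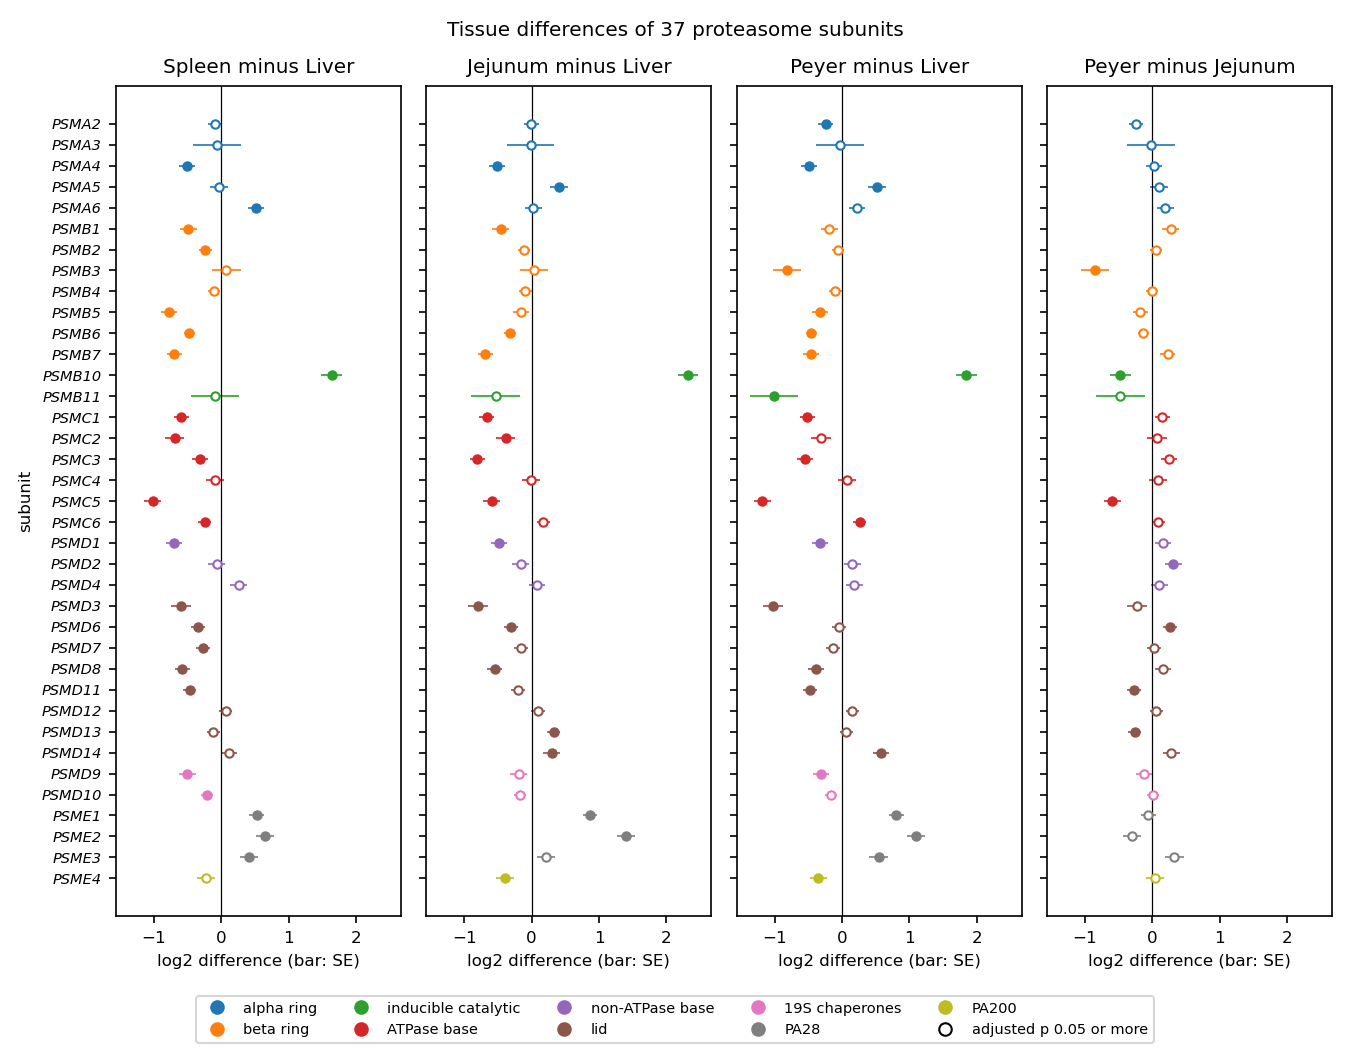
Log2 difference (x axis) of each of the 37 tested subunits (y axis, coloured by its place in the proteasome) in 4 comparisons, with SE bars and filled points where the adjusted p is under 0.05. PSMB10 lies at 1.64, 2.32 and 1.85 in the 3 comparisons with Liver, to the right of all other subunits, and PSME1 and PSME2 come next, while most core, base and lid subunits lie at or left of 0.

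Many standard subunits had a lower signal in Spleen than in Liver, and the inducible PSMB10 and the PA28 genes a higher one. Of 37 subunits, 5 were higher in Spleen (PSMB10, PSME1, PSME2, PSME3 and PSMA6) and 19 were lower at an adjusted p under 0.05 (limma), where 39.5% of all probes were higher and 28.3% lower. The subunits' median difference was -0.23, against 0.15 over all probes. The largest falls were PSMC5, an ATPase of the base (-1.02 ± 0.13, SE, adjusted p = 2.1e-07), PSMB5, the chymotrypsin-like active site (-0.77 ± 0.12, 3e-06), and PSMD1, a scaffold of the base (-0.71 ± 0.12, 1.5e-05). This split depends on scaling: median centring gave 4 higher and 20 lower, quantile normalization 12 and 4, and the authors' deposited values 9 and 10. With slide as a block there were 4 and 15, without animal 68 there were 6 and 15, and without animal 73 there were 5 and 16.

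Few subunits differed between Peyer and Jejunum. Of 37 subunits, 2 were higher in Peyer (PSMD2 and PSMD6) and 5 lower (PSMB3, PSMC5, PSMB10, PSMD11 and PSMD13), against 16.8% and 25.1% of all probes. The subunits' median difference was 0.04, and that of all probes -0.16. With animal as a block 1 was higher (PSME3) and 6 lower, since PSMD2 and PSMD6 lost the call and PSME3 and PSMA2 gained one, with slide as a block 2 and 3, and without the Peyer array of animal 71 there were 7 and 5. Median centring, which moved the median over all probes to 0.02, and quantile normalization each gave 8 higher and 2 lower, and the authors' values 7 and 4.

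The comparisons across slide sets gave the following counts of 37. Between Jejunum and Liver 6 were higher in Jejunum and 13 lower (all probes: 32.1% and 29.3%), with a median of -0.16 against 0.03 over all probes. Between Peyer and Liver 7 were higher in Peyer and 16 lower (all probes: 34.5% and 36.5%), and 9 and 16 without the Peyer array of animal 71. The median was -0.16, and -0.04 over all probes. Median centring gave 10 and 8 there, and quantile normalization 13 and 8.

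Between Peyer and Spleen 10 were higher in Peyer and 4 lower (all probes: 20.6% and 35.4%), 11 and 3 without that array, 24 and 1 after median centring and 5 and 3 after quantile normalization. The median was 0.15, and -0.18 over all probes, which median centring moved to 0.09. Between Spleen and Jejunum 2 were higher in Spleen and 10 lower (all probes: 34.5% and 24.9%), with a median of -0.04 against 0.16 over all probes, and quantile normalization gave 6 and 5. These comparisons share tissues and are not independent of each other. In the authors' deposited values the means of the 2 slide sets are nearly equal probe by probe (SD of the difference 0.12 over 44600 probes, against 1.47 in the scanner signals), so across sets those values hold little of the difference. They gave 10 higher and 1 lower in Jejunum minus Liver, 16 and 3 in Peyer minus Liver, 14 and 1 in Peyer minus Spleen and 3 and 10 in Spleen minus Jejunum.

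Fewer subunits had groups without any overlap. In Spleen minus Liver 4 lay wholly above and 10 wholly below (all probes: 27.2% and 19.7%), and in Peyer minus Jejunum 2 above and 1 below (4.57% and 6.63%). In Jejunum minus Liver these were 5 and 10 (22.8% and 22.3%), in Peyer minus Liver 4 and 8 (20.4% and 24.5%), in Peyer minus Spleen 1 and 0 (11.5% and 18.4%) and in Spleen minus Jejunum 1 and 3 (23.5% and 18.4%). Differences that were called and at least 2-fold were rare among subunits. Lower by that much were PSMC5 in Spleen minus Liver (17% of all probes) and PSMC5, PSMD3 and PSMB11 in Peyer minus Liver (21.4%), and 0 in Jejunum minus Liver (15.2%). The probes of PSMD3 and PSMB11 were dim. In the other comparisons 0 subunits passed 2-fold in either direction, where the shares of all probes were 5.61% higher and 8.48% lower for Peyer minus Jejunum, 10% and 16.8% for Peyer minus Spleen and 16% and 15% for Spleen minus Jejunum.

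**Figure D2:**
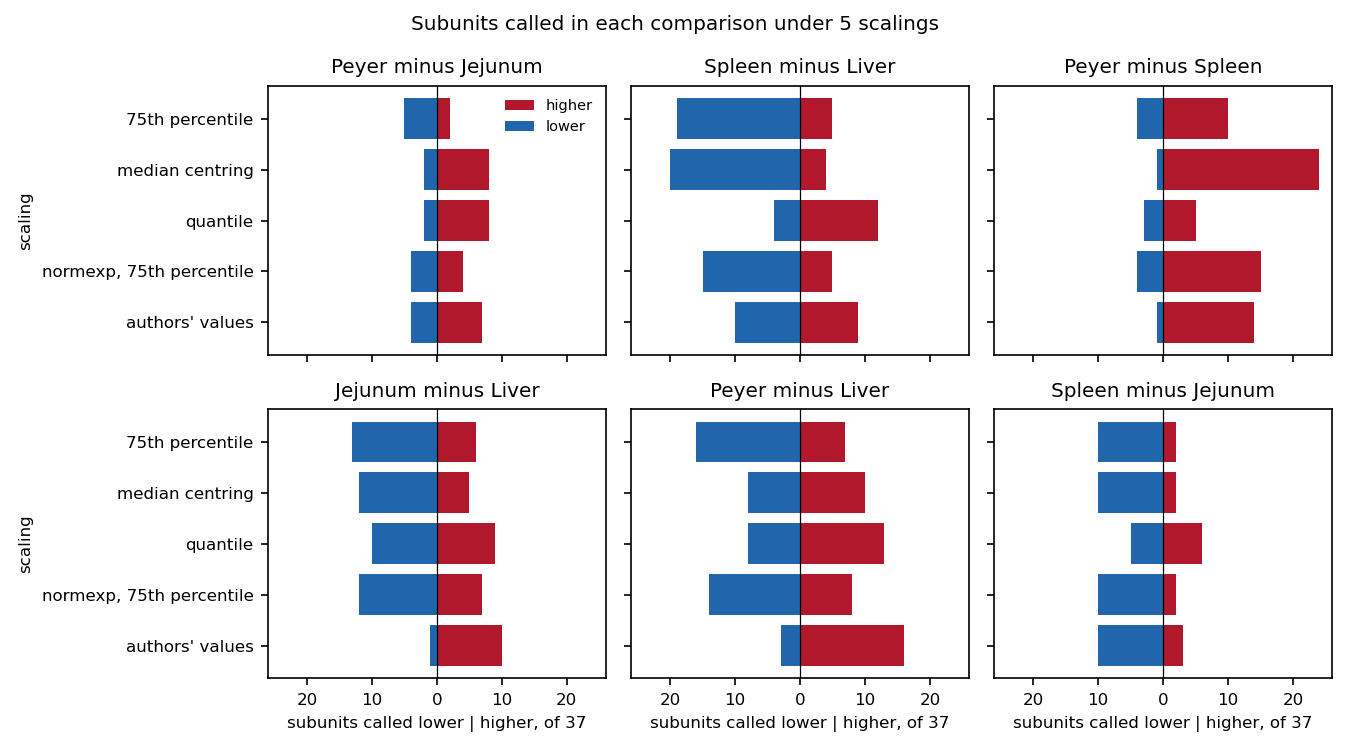
Number of the 37 subunits called higher (red, to the right) and lower (blue, to the left) in each of the 6 comparisons (panels) under 5 scalings (y axis). Between Spleen and Liver the 75th percentile gave 5 higher and 19 lower, and quantile normalization gave 12 and 4.

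Among the 5 alpha ring subunits on the array, PSMA2 to PSMA6, which form the gate of the core, movement was small and went both ways. PSMA6 was higher in Spleen, where its 6 arrays ran from 4.80 through a median of 4.99 to 5.32, than in Liver, at 4.32, 4.51 and 4.74. The groups did not overlap, and the difference was 0.51 ± 0.12 (SE, adjusted p = 0.0007). Against Jejunum it was 0.49 ± 0.12 (adjusted p = 0.0014), also without overlap.

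PSMA6 had 5 probes, and in Peyer minus Spleen they were called in opposite directions (from -0.29 to 0.34). PSMA5 was lowest in Spleen, with 2.78 to 3.57, and highest in Peyer, with 3.42 to 3.94. The groups overlapped, and the difference was 0.55 ± 0.13 (adjusted p = 0.0014). PSMA3, with tissue means 0.06 apart and a dim probe that reads as the protein on the opposite strand, was not called in any comparison.

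The 7 beta ring subunits held the standard active sites. Between Spleen and Liver 5 of 7 were lower and 0 higher by limma (all probes: 28.3% and 39.5%), with a median of -0.47, while after quantile normalization the median of all 37 subunits was 0.03. PSMB7, the trypsin-like site that PSMB10 replaces, ran from 3.99 through 4.19 to 4.64 on Liver arrays and from 3.45 through 3.49 to 3.71 in Jejunum. The tissues did not overlap, and PSMB7 was lower in Jejunum by -0.69 ± 0.11 (adjusted p = 1.1e-05) and lower in Spleen by -0.70 ± 0.11 (adjusted p = 6.9e-06).

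PSMB5 ran from 0.47 through 0.66 to 0.87 in Spleen, below all 6 arrays of Liver, at 1.35, 1.43 and 1.65, and of Jejunum, at 1.16, 1.29 and 1.49. Its difference between Spleen and Jejunum was -0.62 ± 0.12 (adjusted p = 7.4e-05). Within the 3 slides, Spleen minus Liver was -0.85, -0.78 and -0.70.

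PSMB3, a structural subunit, was lowest in Peyer, where it ran from -0.44 through 0.43 to 1.102. The other tissues lay higher and overlapped it, with 0.87, 1.12 and 1.83 in Jejunum and 1.04, 1.31 and 1.55 in Spleen. The difference from Jejunum was -0.85 ± 0.21 (adjusted p = 0.003), lower in 6 of 6 animals, and within slides it was -1.21, -0.62 and -0.73. The other PSMB3 probe gave -1.55 ± 0.42 (adjusted p = 0.006). From Spleen the difference was -0.90 ± 0.21 (adjusted p = 0.001), lower in 5 of 6 animals.

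Some subunits were nearly flat, and 3 are named here after their values were seen. PSMB4, another structural beta subunit, had tissue means within 0.11 log2 of each other, with arrays from 4.75 to 5.20. The lid subunit PSMD12 and the ATPase PSMC4 had means within 0.16, and none of the 3 chosen probes was called in any of the 6 comparisons. The other PSMD12 probe was called higher than in Liver in Spleen (0.26, adjusted p = 0.046) and in Peyer (0.29, adjusted p = 0.029). The probes of PSMB4 went both ways in Spleen minus Liver, from -0.32 to 0.52.

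PSMB10 was the subunit that differed most. It was lowest in Liver, where its 6 arrays ran from 3.08 through a median of 3.66 to 3.83. Spleen lay at 4.93, 5.23 and 5.51, Peyer at 5.06, 5.35 and 5.81, and Jejunum at 5.50, 5.93 and 6.22. No Liver array reached any array of another tissue, while the other 3 tissues overlapped one another.

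Spleen was 3.11-fold above Liver for PSMB10 (log2 1.64 ± 0.15, SE, adjusted p = 1.7e-09), with 1.46, 1.77 and 1.67 within the 3 slides. Peyer was 3.6-fold above Liver (1.85 ± 0.15, adjusted p = 2.4e-10) and Jejunum 5-fold (2.32 ± 0.15, adjusted p = 3.9e-12). Without the Peyer array of animal 71 the difference of Peyer was 1.77. All 3 differences held in 6 of 6 animals and were called under each scaling tried, including the authors' values, with 1.92, 1.05 and 1.47. The authors' values hold little of the difference between slide sets. They are therefore no check on the differences of Peyer and Jejunum from Liver. Against Liver, 1 other subunit rose at least 2-fold in Jejunum and in Peyer, PSME2, and none did in Spleen. Among all probes 22.6% did so in Spleen, 18.1% in Jejunum and 19.7% in Peyer.

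**Figure D3:**
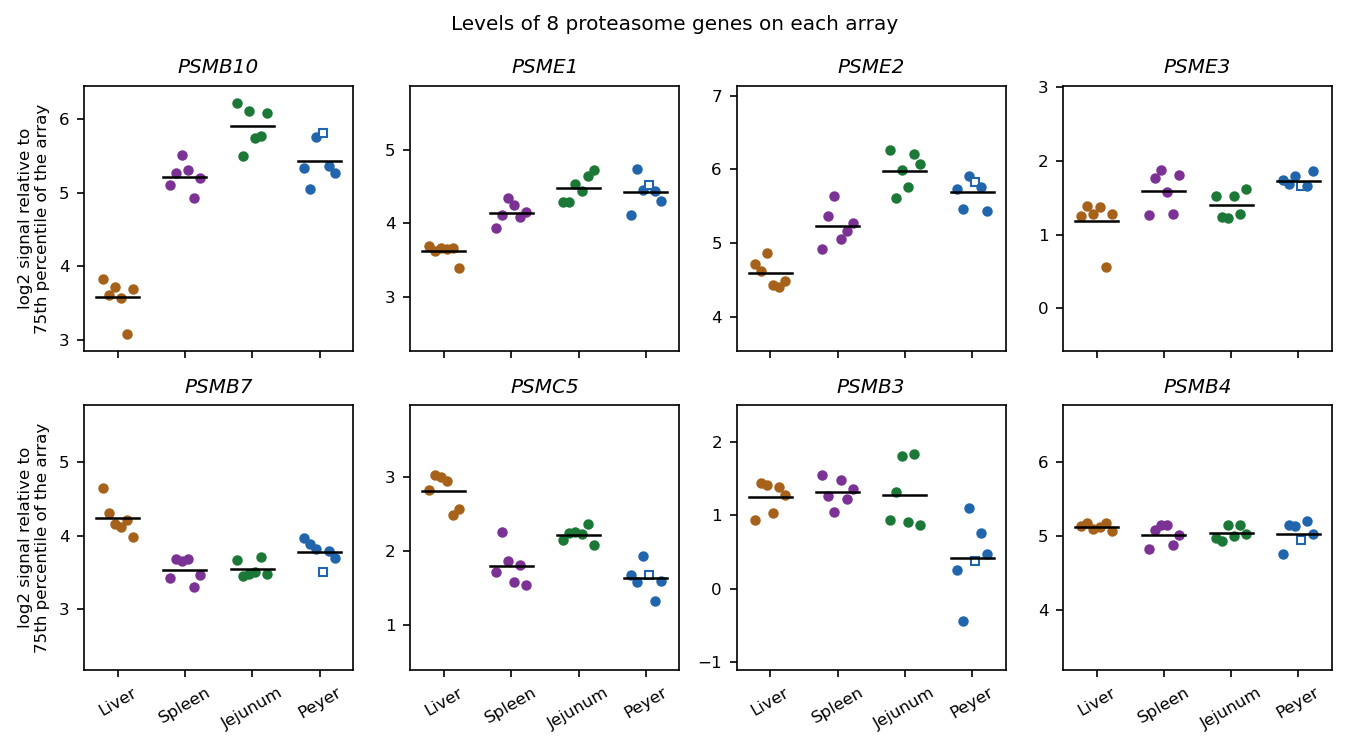
Log2 signal relative to the 75th percentile of the array (y axis, the same span in each panel) for 8 genes in 4 tissues (x axis). Each point is 1 array, the bars are means of 6, and the open square is Peyer of animal 71. PSMB10 rises from 3.58 in Liver to 5.91 in Jejunum, PSMB7 and PSMC5 are highest in Liver, and PSMB4 is level.

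Of the 4 PSMB10 probes all were called higher than in Liver, by 1.09 to 1.64 in Spleen and by 1.79 to 2.32 in Jejunum. A pair of these probes shares 50 bases and are not separate measurements. Between the gut samples PSMB10 was lower in Peyer than in Jejunum by -0.47 ± 0.15 (adjusted p = 0.017), lower in 5 of 6 animals and with overlap. This call was lost without animal 68 (adjusted p = 0.084), without animal 75 (0.087), after quantile normalization (0.13) and after median centring (0.15). Spleen was below Jejunum by -0.69 ± 0.15 (adjusted p = 0.00051), but in the authors' values it was above it by 0.45. Peyer minus Spleen was 0.21 ± 0.15 (adjusted p = 0.25), and -0.87 in the authors' values.

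The ratio of PSMB10 to PSMB7 on the same array, in which array scaling cancels, differed from Liver by more than either gene alone. This follows from PSMB10 being higher and PSMB7 lower than in Liver in each other tissue, and is not a separate result. The ratio was higher by 2.34 ± 0.26 log2 in Spleen, by 3.01 ± 0.24 in Jejunum and 2.31 ± 0.42 in Peyer (SD over 6 animals), with no overlap between Liver and these tissues. The smallest of these differences in any animal was 1.86, in Peyer. Relative to the mean of 11 core subunits, PSMB10 was higher than in Liver by 1.89 ± 0.23 in Spleen, 2.49 ± 0.18 in Jejunum and 2.07 ± 0.40 in Peyer. The core mean itself (SD over 6 animals) was 3.26 ± 0.06 for Liver, 3.001 ± 0.12 for Spleen, 3.09 ± 0.12 for Jejunum and 3.04 ± 0.10 for Peyer.

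**Figure D4:**
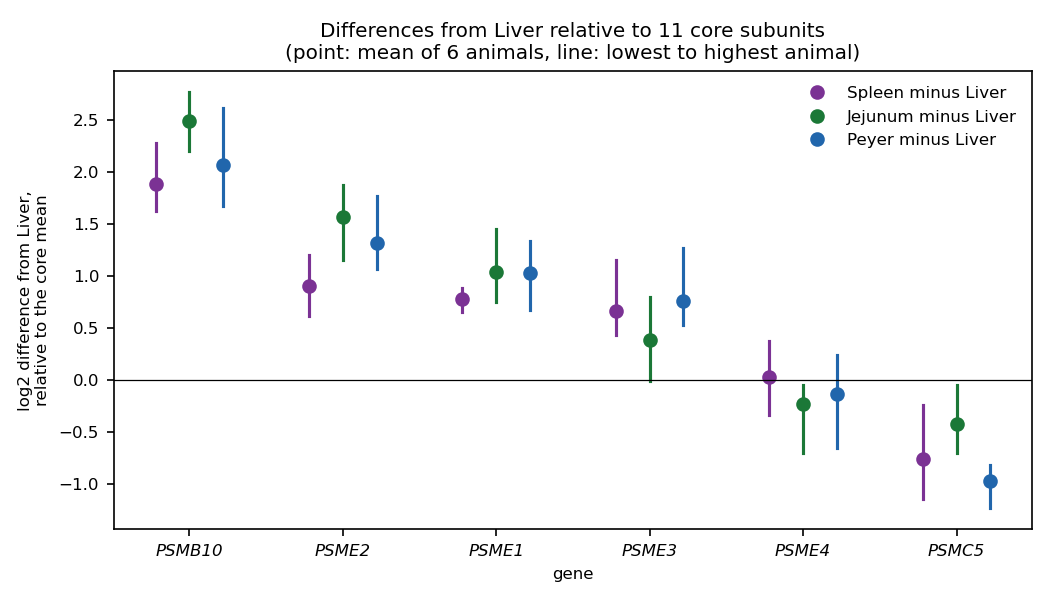
Log2 difference from Liver relative to the mean of 11 core subunits on the same array (y axis) for 6 genes (x axis). Points are means of 6 animals and lines run from the lowest to the highest animal. PSMB10 lies at 1.89 to 2.49, PSME1 and PSME2 lie above 0 in every animal, and PSMC5 lies below 0 in every animal.

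PSMB11, the active site known from the thymus, was dim but well above background, with arrays from -6.53 to -2.55. It was lower in Peyer than in Liver by -1.01 ± 0.36 (adjusted p = 0.016) and lower than in Spleen by -0.91 ± 0.36 (adjusted p = 0.036). The groups overlapped. Without animal 69 the adjusted p was 0.062 against Liver and 0.069 against Spleen, without animal 68 it was 0.054 and 0.12, and against Spleen it was 0.095 without animal 71 and 0.07 without animal 75. The lowest PSMB11 level was on the array with the highest 75th percentile (Peyer of animal 69, 2262 signal units). The highest was on the array with the lowest percentile (Spleen of animal 71, 275.4). The part of that percentile in the differences of this dim probe was not tested.

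The 6 ATPases of the base unfold substrates. Against Liver 5 of 6 were lower in Spleen (28.3% of all probes), 4 in Jejunum (29.3%) and 3 in Peyer (36.5%), and PSMC6 was higher in Peyer. The Spleen count depends on scaling, since after quantile normalization 4 of all 37 subunits were lower in Spleen than in Liver. PSMC5 was the subunit that fell most in Spleen and in Peyer. It ran from 2.49 through 2.89 to 3.04 in Liver, 2.08 through 2.24 to 2.37 in Jejunum, 1.54 through 1.77 to 2.26 in Spleen and 1.32 through 1.64 to 1.93 in Peyer. No Liver array overlapped those of the other tissues, and Peyer and Jejunum did not overlap either.

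PSMC5 was 0.494-fold of Liver in Spleen and 0.44-fold in Peyer (-1.18 ± 0.13, adjusted p = 2.1e-08). Peyer was below Jejunum by -0.59 ± 0.13 (adjusted p = 0.0011), with -0.57, -0.44 and -0.77 within slides. All these calls held under each scaling tried. For Peyer against Liver the authors' values, which hold little of the difference between slide sets, are no check. PSMC3 was highest in Liver, at 3.60, 4.00 and 4.23, and lowest in Jejunum, at 3.04, 3.17 and 3.28, without overlap. The difference was -0.81 ± 0.12 (adjusted p = 2.3e-06), and 0.04 in the authors' values.

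PSMC3 was also higher in Spleen than in Jejunum, by 0.49 ± 0.12 (adjusted p = 0.00092), and by -0.08 in the authors' values. PSMC6 was higher in Peyer than in Spleen by 0.51 ± 0.10 (adjusted p = 0.00015), in 6 of 6 animals without overlap. The other subunits of the base, PSMD1, PSMD2 and PSMD4, hold it together and bind ubiquitin. PSMD1 was lower in Spleen in 6 of 6 animals, without overlap with Liver. In Peyer minus Spleen the 8 probes of PSMD1 ran from -0.87 to 0.93, with 1 called higher and 2 lower. PSMD2 was higher in Peyer than in Jejunum by 0.32 ± 0.12 (adjusted p = 0.045), a call lost with animal as a block (0.052) and without animal 69, 70, 73 or 75 (0.072 to 0.17).

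The lid removes ubiquitin chains from the substrate, and PSMD14 is the enzyme that does so. Of its 8 subunits 5 were lower in Spleen than in Liver and 0 higher by limma (all probes: 28.3% and 39.5%), with a median of -0.31. In Jejunum 3 were lower than in Liver and 2 higher (29.3% and 32.1%), and in Peyer 3 were lower and 1 higher (36.5% and 34.5%). PSMD14 was the lid subunit higher in Peyer than in Liver. The lid count in Spleen depends on scaling too, since quantile normalization left 4 of all 37 subunits lower than in Liver.

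PSMD14 was at 1.72, 1.90 and 1.99 in Liver and at 1.97, 2.54 and 2.65 in Peyer, where the lowest array was that of animal 71. Peyer was above Liver by 0.58 ± 0.12 (adjusted p = 0.0002) and above Spleen by 0.46 ± 0.12 (adjusted p = 0.0027). Over Jejunum it was 0.29 ± 0.12 (adjusted p = 0.063), and 0.38 without the Peyer array of animal 71 (adjusted p = 0.0058).

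PSMD3, a scaffold of the lid, had a dim probe that reads as its protein on the opposite strand. The signal may therefore not be its transcript, although PSMD3 is kept in the lid counts and among the 2-fold falls above. That signal was lowest in Peyer, at -4.03, -3.97 and -3.83, against -3.26, -2.85 and -2.70 in Liver. The tissues did not overlap, and the difference was -1.02 ± 0.15 (adjusted p = 2.2e-06). Jejunum was below Liver by -0.79 ± 0.15 (adjusted p = 7.4e-05). The 75th percentile of the array was lower in Liver (423.8 to 525.7) than in Peyer (876.7 to 2262) and Jejunum (680.9 to 1001). Its part in these falls of a dim signal was not tested. From Spleen, Peyer differed by -0.42 ± 0.15 (adjusted p = 0.019), which was not called without animal 70 (0.061), 71 (0.066) or 75 (0.061), and was 0.13 in the authors' values. PSMD9 and PSMD10, which help assemble the base, were both lower in Spleen than in Liver (-0.50 and -0.21).

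Both genes of the cytosolic PA28 ring were higher in each of the other tissues than in Liver. PSME1 and PSME2 form the activator of the cytosol and PSME3 that of the nucleus. Against Liver 3 of 3 were higher in Spleen (39.5% of all probes) and in Peyer (34.5%) and 2 of 3 in Jejunum (32.1%). PSME2 ran from 4.41 through 4.55 to 4.87 in Liver, 4.92 through 5.22 to 5.64 in Spleen, 5.44 through 5.75 to 5.91 in Peyer and 5.62 through 6.03 to 6.26 in Jejunum. Liver did not overlap the others.

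PSME2 was 1.57-fold of Liver in Spleen (log2 0.65 ± 0.14, adjusted p = 0.00019), 2.14-fold in Peyer (1.099 ± 0.14, adjusted p = 1.7e-07) and 2.63-fold in Jejunum (1.40 ± 0.14, adjusted p = 4e-09). Spleen lay below Jejunum by -0.75 ± 0.14 (adjusted p = 4.9e-05) and below Peyer by 0.45 ± 0.14 (adjusted p = 0.0071). Both turned in the authors' values, to 0.07 for Spleen minus Jejunum and -0.30 for Peyer minus Spleen. Peyer minus Jejunum was -0.30 ± 0.14 (adjusted p = 0.08), and -0.37 by the other PSME2 probe (adjusted p = 0.048).

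PSME1 ran from 3.39 through 3.66 to 3.70 in Liver, 3.94 through 4.13 to 4.34 in Spleen, 4.10 through 4.44 to 4.73 in Peyer and 4.29 through 4.48 to 4.72 in Jejunum. Again no Liver array overlapped another tissue. Its differences from Liver were 0.53 ± 0.11 in Spleen (adjusted p = 0.00018), 0.81 ± 0.11 in Peyer (7.1e-07) and 0.87 ± 0.11 in Jejunum (3e-07). Within slides Spleen minus Liver was 0.36, 0.63 and 0.59.

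Among the 3 tissues outside the liver PSME1 differed less. Peyer minus Spleen was 0.28 ± 0.11 (adjusted p = 0.033), not called without animal 69 (0.14), 71 (0.068) or 73 (0.092), nor without the Peyer array of animal 71 (0.054) or after quantile normalization (0.17), and -0.23 in the authors' values. Spleen minus Jejunum was -0.34 ± 0.11 (adjusted p = 0.01), not called without animal 73 (0.058) or after quantile normalization (0.5), and 0.18 in the authors' values. Peyer minus Jejunum was -0.06 ± 0.11 (adjusted p = 0.69), while the other PSME1 probes gave -0.21 (adjusted p = 0.12) and -0.53 (adjusted p = 0.0011).

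PSME3 had a different order. It was at 0.56, 1.29 and 1.39 in Liver, 1.23, 1.40 and 1.62 in Jejunum, 1.27, 1.68 and 1.88 in Spleen and 1.66, 1.71 and 1.87 in Peyer. Peyer was above Liver by 0.54 ± 0.14 (adjusted p = 0.0013), without overlap, while the other PSME3 probe gave 0.265 and was not called. Spleen was above Liver by 0.41 ± 0.14 (adjusted p = 0.012), with 0.20, 0.40 and 0.62 within slides. This call was not kept with slide as a block (adjusted p = 0.05) or after median centring (0.12), and its other probe gave -0.33. Peyer minus Jejunum was 0.33 ± 0.14 (adjusted p = 0.058), higher in 6 of 6 animals and without overlap, and with animal as a block the adjusted p was 0.034. PSME4, which forms the PA200 cap, was lower than in Liver in Jejunum (-0.39 ± 0.13, adjusted p = 0.012) and in Peyer (-0.35 ± 0.13, adjusted p = 0.02), and the latter was not called without animal 68 (0.079) or 73 (0.092).

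Most genes of a list that responds to interferon gamma were also higher outside the liver. Of 10 such genes on the array, 8 were higher and 0 lower in Spleen than in Liver (all probes: 39.5% and 28.3%), 7 higher and 1 lower in Jejunum (32.1% and 29.3%) and 6 higher and 0 lower in Peyer (34.5% and 36.5%), by limma. Between Spleen and Jejunum, where PSMB10, PSME1 and PSME2 were lower in Spleen, 3 of the 10 were higher and 3 lower (all probes: 34.5% and 24.9%). Their mean level lay between 0.56 and 2.22 on Liver arrays, 2.54 and 3.76 on Spleen, 2.40 and 3.57 on Jejunum and 2.11 and 3.87 on Peyer. The guanylate-binding protein gene GBP1 was higher by 2.40 ± 0.28 in Spleen (adjusted p = 7.2e-08) and GBP2 by 3.35 ± 0.37 in Jejunum (adjusted p = 2.7e-08). Marker lists of other cells differed in the same comparisons with Liver. Of 4 tested T cell genes 3 were higher and 1 lower in each of Spleen, Jejunum and Peyer, of 3 plasma cell genes 2 were higher and 1 lower, and all 5 smooth muscle genes were higher. Of 7 proliferation genes 6 were higher in Spleen, 6 in Jejunum and 7 in Peyer. All 5 B cell genes were higher in Spleen and in Peyer, while in Jejunum 0 were higher and 1 lower by limma. Of 4 macrophage genes 3 were higher in Spleen, and 3 were lower in Jejunum and in Peyer. The mean of the T cell list lay between -1.20 and -0.09 on Liver arrays and between 1.04 and 3.41 on the others, and that of the smooth muscle list between -1.47 and -0.34 and between 1.14 and 5.54.

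The part of the interferon genes and of these cells in the PSMB10 and PA28 differences was not tested.

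Genes that act with the proteasome were called in both directions, as were all probes (39.5% higher and 28.3% lower in Spleen than in Liver). Of 8 genes for bound partners, 2 were higher and 2 lower in Spleen than in Liver. UCHL5, a deubiquitinase of the cap, was higher by 0.54 ± 0.11 (adjusted p = 0.00015). USP14, another deubiquitinase of the cap, was lower in Peyer than in Spleen by -1.06 ± 0.17 (adjusted p = 1.2e-05). Of 5 assembly chaperones 1 was higher and 2 lower in Spleen than in Liver, and PSMG2, which builds the alpha ring, was higher by 0.66 ± 0.14 (adjusted p = 0.00018).

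Of 12 tested genes for ubiquitin and its shuttles 3 were higher and 5 lower in Spleen than in Liver (all probes: 39.5% and 28.3%). UBQLN1, a shuttle that carries ubiquitin-tagged proteins to the cap, was lower by -1.95 ± 0.12 (adjusted p = 6.5e-13), and RAD23B by -1.14 ± 0.10 (adjusted p = 2.2e-10). The transcription factor NFE2L1 raises proteasome genes when the protease is impaired. A list of 5 tested genes held NFE2L1, its relative NFE2L2 and genes for proteins that process NFE2L1. None of the 5 was called between Spleen and Liver by limma, and 3, among them NFE2L2, were lower in Peyer than in Jejunum and 0 higher (all probes: 25.1% and 16.8%). NFE2L1 itself was lower in Peyer than in Liver by -0.997 ± 0.18 (adjusted p = 4.5e-05).

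Within tissues, many subunits varied together from array to array. After removing tissue means, the correlation of a subunit with the mean of the other core subunits over 24 arrays had a median of 0.38 over the 37 subunits, against 0.01 over all probes (quartiles -0.18 and 0.21). PSMA6 and PSMD14 were highest at 0.72, followed by PSMB2 at 0.70. PSMD3 (-0.19), PSMB11 (-0.14), PSMB3 (-0.02) and PSMB5 (0.00) were lowest. PSMB10 was at 0.34 and PSME2 at 0.56. Without the Peyer array of animal 71 the median was 0.44. After median centring it was 0.74, where all probes had 0.18. The points share their arrays and scaling, so these values are descriptions.

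**Figure D5:**
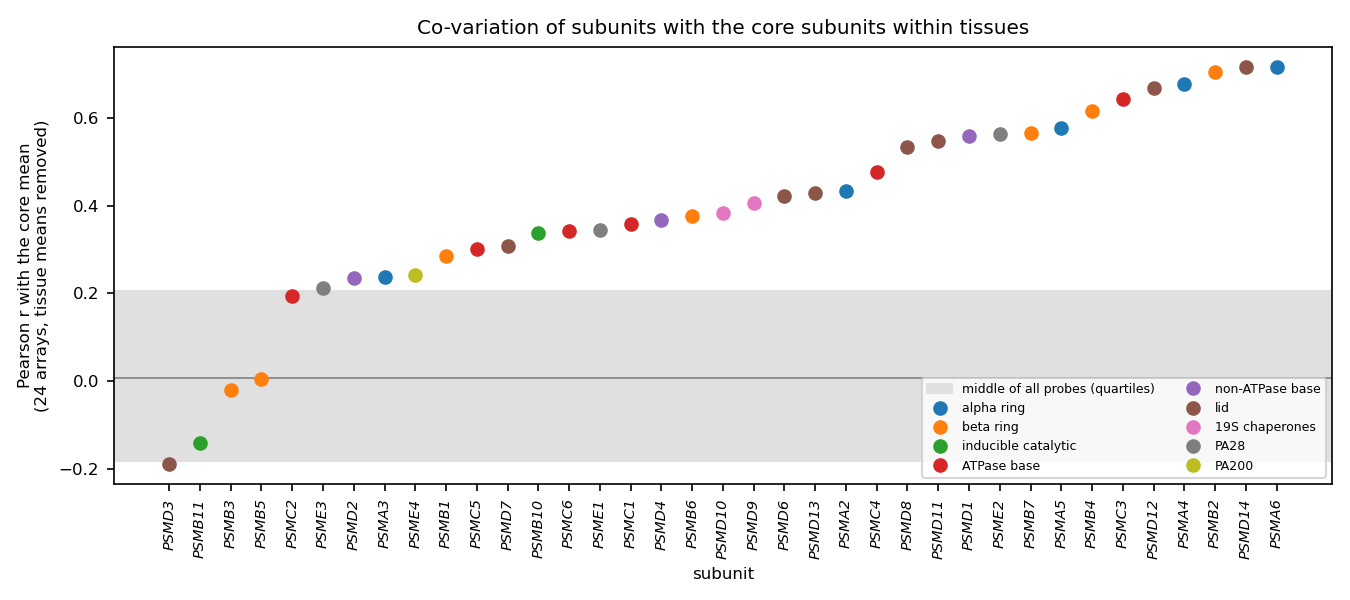
Pearson correlation (y axis) of each subunit (x axis, coloured by role) with the mean of the other core subunits over 24 arrays after removing tissue means. The grey band spans the quartiles of all probes, -0.18 to 0.21, and PSMA6 and PSMD14 reach 0.72.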

How the data were processed

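Signals of 24 one-colour Agilent arrays (60305 probes) were deposited as scanner intensity, already background-subtracted by Agilent Feature Extraction 10.10.1.1, per the file headers. The authors' deposited table of log2 values (44600 probes, an identical distribution on every array, median 8.24) served as an alternative, and its normalization steps are not given in the sources used here. Intensities were put on a log2 scale minus the 75th percentile of each array. A probe was kept if some tissue had it well above background in all 6 animals and no array called it an outlier, which left 42650. No probe was saturated.

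Tissues were compared with limma 3.58.1 (R 4.3.3; lmFit and eBayes over 24 arrays, tissue alone), with p-values adjusted by Benjamini-Hochberg over all kept probes and called under 0.05. The members and gene lists were chosen with earlier results of these data known. Gene names were matched in either letter case, since upper case alone finds 36 of the 39 names. Differences are given for the 3 highest and 3 lowest subunits of a comparison, for PSMB10 and for the PSME genes, except some that were not called. Other named subunits were chosen after their values were seen.

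The 4 samples of an animal share its number. After removing tissue means, 36 same-animal pairs of arrays had a mean correlation of 0.17 (lowest -0.02) and 180 other pairs -0.03, and a fit with animal as a block was an alternative. The others were quantile normalization, median centring, normexp background (offset 50), no filter, the mean of a gene's probes, the compared tissues alone, slide as a block, centring on the core subunits, and leaving out each animal or 1 Peyer array. In simulated data for Peyer minus Jejunum (42650 probes), 50 probes were given each size of change and the rest none. The fit recovered 16% of changes of 0.5 log2, 62% of 1 and 90% of 2, with 4 false calls. In the real data 16.8% of probes were called higher and 25.1% lower, so these rates do not carry over to them. The number of arrays limits the precision.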

Additional observations from a re-analysis of the deposited data

Results flagged for a closer look

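Of 148 sets of 6 arrays, each 1 subunit in 1 tissue, 8 held an array far from the other 5, where chance gives about 5%. In all 8 it was the lowest array. In Peyer of animal 71, the array with the low B cell level, these were PSMC3 at 3.12 (others 3.41 to 3.53), PSMD12 at -0.61 (others -0.15 to -0.08), PSMD14 at 1.97 (others 2.41 to 2.65) and PSMD6 at 1.49 (others 1.74 to 1.88). In Peyer of animal 69, PSMD13 was at 4.48 (others 4.75 to 4.91).

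In Liver of animal 73 PSMB10 was at 3.08 (others 3.57 to 3.83) and PSME3 at 0.56 (others 1.25 to 1.39). In animal 75 PSME1 was at 3.39 (others 3.62 to 3.70).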

How the results depend on the processing

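The number of arrays per tissue limits small differences, and the probes of PSMA3, PSMB11 and PSMD3 were dim. Those of PSMA3 and PSMD3 read as the protein on the opposite strand and may not measure the transcripts. Across the alternatives 94 recomputed counts stayed within 1.5 times the value reported and 36 did not, and of the single differences 535 kept direction and call, 41 lost the call, 20 gained one and 9 reversed. In Peyer minus Jejunum the 2 higher subunits became 8 with quantile normalization or median centring, 4 with normexp, 7 with the authors' values, 0 without the filter, 1 with animal as a replicate block and 7 without the Peyer array of animal 71. The 5 lower ones became 2 with quantile normalization or median centring and 3 without the filter, with both tissues alone or with slide as a block. In Spleen minus Liver the 5 higher became 12 (quantile) and 9 (authors' values), and the 19 lower became 4 and 10. In Peyer minus Spleen the 10 higher became 5 (quantile), 24 (median centring) and 6 (both tissues alone), and the 4 lower became 1 (median centring or authors' values) and 2 (both tissues alone). In Jejunum minus Liver the authors' values gave 10 higher and 1 lower. In Peyer minus Liver the 7 higher became 13 (quantile) and 16 (authors' values), and the 16 lower became 8 (quantile or median centring) and 3 (authors' values). In Spleen minus Jejunum quantile normalization gave 6 higher and 5 lower, and the mean of a gene's probes 1 higher.

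Leaving out 1 animal at a time gave 0 to 3 higher and 2 to 5 lower in Peyer minus Jejunum, 5 to 6 and 15 to 17 in Spleen minus Liver, 6 to 10 and 1 to 5 in Peyer minus Spleen, 4 to 6 and 12 to 13 in Jejunum minus Liver, 6 to 9 and 11 to 16 in Peyer minus Liver, and 2 to 2 and 7 to 11 in Spleen minus Jejunum. All 9 reversals came with the authors' values across slide sets: Peyer minus Spleen became -0.87 for PSMB10, -0.23 for PSME1, -0.30 for PSME2 and 0.13 for PSMD3, Spleen minus Jejunum became 0.45 for PSMB10, 0.18 for PSME1, 0.07 for PSME2 and -0.08 for PSMC3, and Jejunum minus Liver became 0.04 for PSMC3. The cause was not tested. With animal as a block PSMD2 and PSMD6 lost their calls in Peyer minus Jejunum and PSME3 (adjusted p = 0.034) and PSMA2 (0.042) gained one, as did PSMD4 in Spleen minus Liver (0.037) and PSMC2 in Peyer minus Liver (0.041), and no other call changed.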
